A study of Mus musculus with 7 samples.

Results

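The genes described here are 36 synaptic adhesion molecules, found by symbol among the 55536 genes of the deposited gene list, where each symbol matched 1 row. They were followed in hippocampal nuclei of mice, as transcripts counted per first-round barcoding well and type of nucleus. The series held 7 deposited libraries, which were sublibraries of a single split-pool barcoding run. The 24 wells of single nuclei were used, each holding the nuclei of frozen, perfused hippocampal tissue from 1 mouse, with 6 wells per group (3 females and 3 males). WT-veh and WT-PMX were wild-type C57BL6/J mice. Arc-veh and Arc-PMX were hemizygous Arctic48 mice, an Alzheimer's disease model in which a human APP transgene with the Swedish, Indiana and Arctic mutations is expressed from a promoter not given in the sources used here. WT-PMX and Arc-PMX mice drank PMX205, a cyclic peptide antagonist of the complement receptor C5aR1, at 20 µg/ml, for 12 weeks per the labels (the age range in the study's text gives a shorter time), and WT-veh and Arc-veh mice drank water. All 4 groups were killed at 10 months of age, housed singly during treatment and, per the labels, perfused with the transcription inhibitors actinomycin D and triptolide. The study's reporting summary says that the authors dropped 1 WT sample whose expression resembled Arctic, without saying which. All 24 wells therefore entered under their own labels.

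Synaptic adhesion molecules are membrane proteins that reach across the synaptic cleft and bind a partner on the other side, which holds the terminals together and helps to set which synapses form and how they signal. Neurexins and the LAR-type receptor phosphatases act mainly from the presynaptic side, where neurexins bind neuroligins and LRRTM proteins, and the phosphatases bind Slitrk proteins, some Lrfn proteins and interleukin-1 receptor accessory proteins. Teneurins, latrophilins and FLRT proteins form another set of partners, and CADM (SynCAM) proteins bind each other. In the hippocampus these families differ between dentate granule, CA1, CA3 and inhibitory neurons, and glia make some of them too.

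Nuclei were placed into types by clusters that were built without the 36 genes and named from marker genes, so that each type stands for nuclei like that type. After filters, 43885 nuclei were left, with 1150 to 3111 nuclei and 4389302 to 30001277 transcripts per well. The 8 types followed were dentate granule (8544 nuclei), CA1 (4211), CA3 (2431), interneuron (2644), astrocyte (5438), oligodendrocyte (4152), oligodendrocyte precursor (OPC, 1380) and microglia (1512). Mean levels of defining markers were 65.9 CPM (the gene's count over all transcripts of the type in the well, on the usual CPM scale) of Fibcd1 in CA1, and 331 CPM of Gad2 in interneurons against 0.908 CPM in dentate granule nuclei. Grik4 had 2116 CPM in CA3, but also 704 CPM in OPC and 668 CPM in dentate granule nuclei. Gad1 was less specific, with 333 CPM in interneurons, 69.4 CPM in OPC and 47.3 CPM in dentate granule nuclei. Prox1 reached 369 CPM in dentate granule nuclei, and oligodendrocytes held 344 CPM of it. Wells WT-veh F3 and WT-veh M3 held few glia, with 15 and 28 oligodendrocyte nuclei (97 to 293 in the other wells) and 0 and 3 microglia nuclei (9 to 160), so microglia, with at least 10 nuclei asked of a well, rest on 21 wells. Before doublets were removed, 8449 of the nuclei kept had a barcode that occurred in more than 1 sublibrary, and the sublibrary was therefore part of a nucleus' identity.

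The members were spread over all neuronal types and over glia. The type with the highest mean level was OPC for 9 members, interneuron for 7, dentate granule for 6, CA3 for 6, CA1 for 4, astrocyte for 3 and oligodendrocyte for 1, and microglia led for 0. With CPM scaled by TMM over types, Slitrk1 and Adgrl3 were highest in CA1 and Slitrk3 and Il1rapl1 in dentate granule nuclei, instead of in OPC. Levels are means of CPM over the wells of both genotypes, and differences between types are descriptions without a test. For Nlgn1, Slitrk2 and Ptprf the highest type depended on genotype. It was OPC, astrocyte and oligodendrocyte in WT wells, and CA3, OPC and astrocyte in Arc wells. Since nuclei hold much unspliced RNA, levels of different genes were compared only after division by the gene's span in kb.

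**Figure D1:**
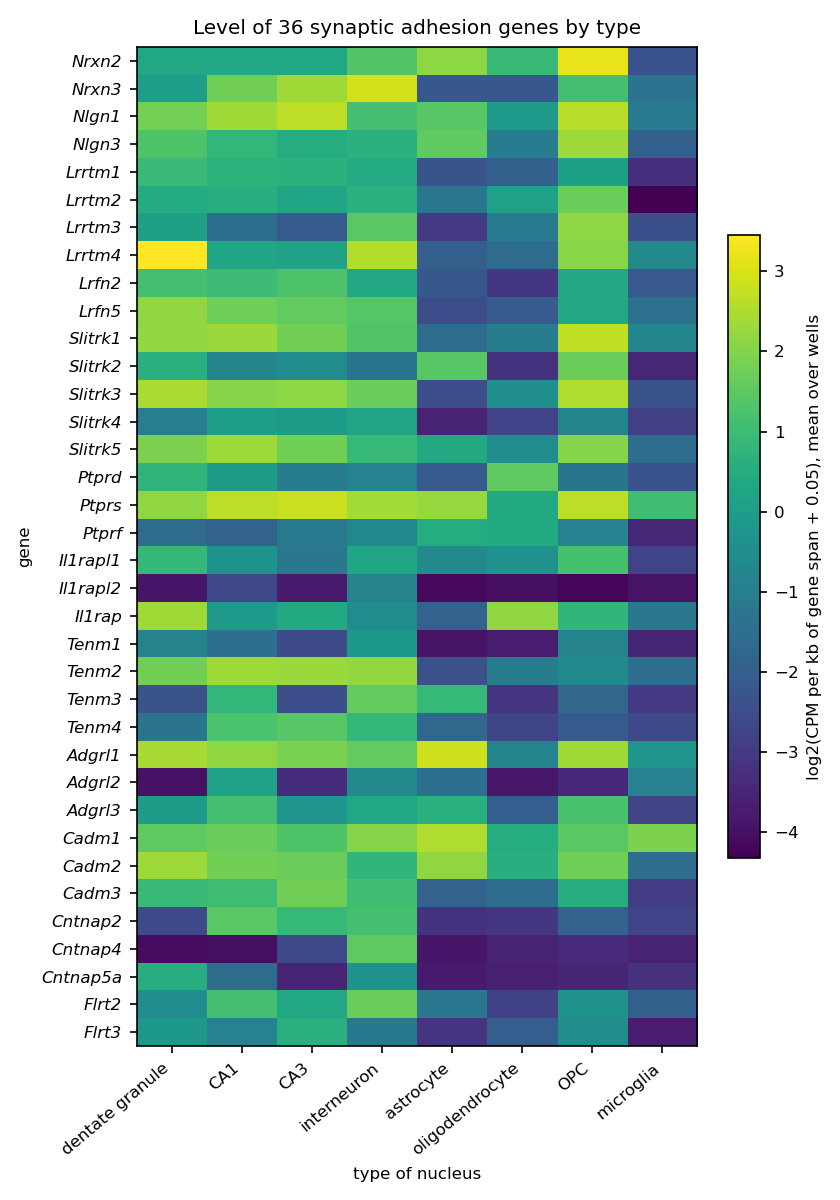
Each cell gives the mean level over wells of 1 of the 36 genes (rows) in 1 of 8 types of nuclei (columns), as log2 of CPM per kb of gene span plus 0.05. Dentate granule nuclei stand out for Lrrtm4 (10.9 CPM per kb), OPC for Nrxn2 (9.11 CPM per kb) and interneurons for Nrxn3 (7.52 CPM per kb), and microglia are dark in nearly all rows.

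Of the presynaptic organizers, the neurexins differed in their main type. Nrxn3 (chr12:88722876-90334935 on GRCm38, plus strand) was highest in neurons, with a mean of 12128 CPM in interneurons (10451 to 14517 over 24 wells), 8150 in CA3, 5427 in CA1, 3560 in OPC and only 1586 in dentate granule nuclei. Interneurons were above CA3 and CA3 above CA1 in 24 of 24 wells each, so this order was larger than the spread between wells. Nrxn2 (chr19:6418731-6544169, plus strand) was highest in OPC with 1143 CPM (635 to 1574), followed by 543 in astrocytes, 317 in interneurons, 229 in oligodendrocytes and 149 to 152 in the other neurons, with the lowest mean in microglia (17.9 CPM), and OPC lay above astrocytes in 24 of 24 wells. Per kb of span, Nrxn2 in OPC (9.11 CPM per kb) was above Nrxn3 in OPC (2.21 CPM per kb).

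The receptor phosphatases split by type as well. Ptprd (chr4:75941238-78211961, minus strand) was highest in oligodendrocytes, with 6377 CPM (5507 to 7159) against 3718 in dentate granule nuclei (2909 to 4692), and the wells of these types did not overlap. Ptprf (chr4:118208213-118291405, minus strand) was low in neurons at 18.4 to 46.8 CPM and reached 114 CPM in astrocytes and 105 CPM in oligodendrocytes. Over all wells these glial types did not differ beyond their spread, since astrocytes were higher in 17 of 24 wells. Oligodendrocytes had the highest mean in WT wells (95.4 CPM) and astrocytes in Arc wells (137 CPM). Ptprs (chr17:56412426-56476483, minus strand) ran from 80.8 CPM in oligodendrocytes to 451 CPM in CA3, and was among the 3 members that ranked best in microglia (132 CPM, 0 to 250).

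The postsynaptic partners of neurexins had their highest levels in different types. Lrrtm4 (chr6:80018877-80810143, plus strand), which binds neurexins and heparan sulfate proteoglycans, was the highest member of dentate granule nuclei, with 8630 CPM on average and 6555, 8709 and 10522 CPM in the lowest, median and highest well. The next type was the interneuron at 4653 CPM (3142 to 6068), and no interneuron value reached the lowest dentate granule value. Lrrtm3 (chr10:63928472-64090277, minus strand) led in OPC with 709 CPM (450 to 917), above interneurons in 24 of 24 wells, but it lies within Ctnna3, and reads from the 2 genes may not be separable. Lrrtm1, within Ctnna2, was highest in dentate granule nuclei at 28.5 CPM, and Lrrtm2, within Ctnna1, in OPC at 19.3 CPM, both with the same limit. The neuroligins, the classical neurexin receptors, were broad. Nlgn1 was similar in CA3 (5716 CPM) and OPC (5489 CPM; CA3 higher in 14 of 24 wells), and Nlgn3 (chrX:101299168-101325963, plus strand) was highest in OPC at 133 CPM (53.7 to 258) and next in astrocytes at 77.8 CPM.

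Of the partners of the receptor phosphatases, Il1rapl2 differed between interneuron clusters. Il1rapl2 (chrX:137570608-138846946, plus strand), an interleukin-1 receptor accessory protein-like molecule, had 653 CPM in interneurons (415 to 1006) against 143 in CA1 (80.8 to 244) and 22.2 in dentate granule nuclei. Within interneurons it reached 1048 ± 250 CPM (SD, n = 24 wells) in the MGE-like cluster and 74.8 ± 62.8 CPM in the CGE-like cluster, and the lowest MGE-like well (729 CPM) was above the highest CGE-like well (221 CPM). Nrxn3 ran the other way, with 11647 ± 994 CPM in MGE-like and 18533 ± 2159 CPM in CGE-like nuclei and no overlap between wells, and the remaining interneuron cluster, led by Gad2, Hcrtr2 and Pde11a, held 2666 ± 510 CPM. Il1rapl1, a relative of Il1rapl2, was highest in OPC (3087 CPM), and Il1rap was high in dentate granule nuclei (745 CPM) and in oligodendrocytes (656 CPM, 519 to 778), dentate granule being higher in 18 of 24 wells. Lrfn5 (chr12:61523150-61858342, plus strand), a leucine-rich repeat protein of the SALM family, was highest in dentate granule nuclei (1472 CPM, 993 to 1834), above CA1 (1098 CPM) in 24 of 24 wells. Lrfn2, of the same family, ranged from 204 to 396 CPM in neurons. The Slitrk genes, whose proteins bind Ptprd and Ptprs, led in different types. Slitrk1, Slitrk2 and Slitrk3 were highest in OPC at 35.0, 38.7 and 60.2 CPM, Slitrk4 in interneurons at 13.4 CPM and Slitrk5 in CA1 at 39.5 CPM. None of these 5 exceeded the next type in more than 17 of 24 wells.

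Among the teneurins and their latrophilin and FLRT partners, Adgrl2 and Tenm3 were high in CA1 and low in CA3 and dentate granule nuclei, and the others followed other patterns. Adgrl2 (latrophilin-2; chr3:148815583-148990555, minus strand) had 183 CPM in CA1 (140, 179 and 224 CPM in the lowest, median and highest well), 8.78 in CA3 and 2.55 in dentate granule nuclei (0.737 to 4.74). The lowest CA1 well was thus above every CA3 and dentate granule well, and interneurons (102 CPM, 54.8 to 147) came next. Tenm3, a teneurin that binds Adgrl2, was likewise high in CA1 (1056 CPM) and interneurons (1828 CPM) and low in CA3 (81.5 CPM) and dentate granule nuclei (91.9 CPM), and astrocytes held 1119 CPM. Tenm4 (chr7:96171246-96911093, plus strand) was highest in CA3 (1951 CPM, 1354 to 2443) and CA1 (1733 CPM), with CA3 higher in 20 of 24 wells. Tenm1 (chrX:42527866-43429126, minus strand) led in interneurons with 760 CPM (604 to 1200), and Tenm2 was near 6000 CPM in CA1 (6166 CPM) and CA3 (5951 CPM), which did not differ beyond their spread (CA1 higher in 14 of 24 wells). Flrt3 (chr2:140650914-140671469, minus strand), which overlaps Macrod2, had 30.6 CPM in CA3 (15.6 to 47.1) against 17.1 in dentate granule nuclei, and Flrt2 led in interneurons with 296 CPM. Adgrl1 (chr8:83900105-83941954, plus strand) was highest in astrocytes with 306 CPM (187 to 624) and Adgrl3 in OPC with 1841 CPM, which CA1 nearly matched at 1760 CPM.

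The CADM proteins and contactin-associated proteins closed the list. Cadm1 (chr9:47530173-47857637, plus strand) was highest in astrocytes with 1877 CPM (1498 to 2363), and microglia held 1210 CPM (448 to 2111 over 21 wells). Over all wells it was the member with the highest level in microglia relative to other types, but this rank rested on the Arc wells: microglia had 0.929 of the astrocyte level in Arc wells and 0.333 in WT wells, where Adgrl2 ranked higher (0.502 of its CA1 level). Cadm2 was broad, from 288 CPM in microglia to 4736 CPM in dentate granule nuclei, and Cadm3 (chr1:173333258-173367695, minus strand) was highest in CA3 at 116 CPM (89.2 to 174) and above the next type in 24 of 24 wells. Cntnap4 (chr8:112570043-112882717, plus strand) was nearly limited to interneurons, with 877 CPM (691 to 1059) against 35.6 CPM in CA3 and 2.56 CPM in dentate granule nuclei. Cntnap5a (chr1:115684756-116587323, plus strand) was highest in dentate granule nuclei with 1251 CPM (1024 to 1552), and Cntnap2 (chr6:45059357-47304213, plus strand), a juxtaparanodal and synaptic protein, was highest in CA1 with 6063 CPM (4985 to 7807), while dentate granule nuclei held 253 CPM and astrocytes, the lowest type, 134 CPM. Further neuron classes were too rare for the tests but extreme in level: Slc17a6-positive excitatory nuclei (8 wells) had 15642 ± 2277 CPM of Ptprd and 10107 ± 1099 CPM of Tenm3, and Cajal-Retzius-like nuclei (2 wells) had 13137 and 15027 CPM of Cntnap2.

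Low levels in glia can be read only beside RNA of neuronal markers in the same nuclei. The summed level of 7 neuronal markers (Rbfox3, Snap25, Syt1, Grin2a, Grin2b, Camk2a and Celf4) was 5.30% of the neuronal level in astrocytes, 4.49% in oligodendrocytes, 10.1% in OPC and 8.11% in microglia. The share of a member's neuronal level exceeded that of each single marker for 16 of the 36 members in astrocytes, 32 in oligodendrocytes, 27 in OPC and 9 in microglia. The highest single marker was at 15.1% in astrocytes, 4.93% in oligodendrocytes, 28.4% in OPC and 10.7% in microglia, so these counts cannot be compared between types. In oligodendrocytes some members were only just above it, such as Cntnap2 (4.97%) and Tenm3 (5.11%). Cadm1 in microglia (109% of its neuronal level), Nrxn3 in OPC (64.1%) and Il1rapl1 in astrocytes (55.6%) were well above the markers. Lrrtm4, Tenm2, Cntnap2 and Lrfn5 in astrocytes (2.96% to 4.42%) and Nrxn3 in oligodendrocytes (4.91%) were at the level of the markers.

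The first comparison asked which members differed between Arc-veh and WT-veh mice. It gave 13 calls among 218 pairs of member and type, at an adjusted p under 0.05 (edgeR quasi-likelihood test on sums per well, sex as covariate, Benjamini-Hochberg over all genes tested in the type). The calls held 11 members, 5 higher and 8 lower. In dentate granule nuclei 2 of 34 members were called (0.29% of all genes tested), in astrocytes 8 of 24 (12.7% of all genes), in OPC 1 of 23 (0.502%) and in microglia 2 of 13 (10.4%). In CA1 0 of 35 members passed (0.0509% of all genes), in CA3 0 of 36 (0.167%), in interneurons 0 of 35 (0.0%) and in oligodendrocytes 0 of 18 (2.62%). At an unadjusted p under 0.05 by edgeR there were 3 members in CA1 (6.98% of all genes), 5 in CA3 (6.81%), 1 in interneurons (5.21%) and 4 in oligodendrocytes (11.6%). Averaged over both treatments, Arc against WT gave 20 calls of 16 members, 6 higher and 14 lower. These were 2 in dentate granule nuclei (1.5% of all genes), 14 in astrocytes (20.1%), 2 in oligodendrocytes (5.24%), 1 in OPC (2.17%), 1 in microglia (18.1%) and 0 in CA1 (0.112%), CA3 (0.448%) and interneurons (0.0112%). The averaged comparison holds the same Arc-veh and WT-veh wells, and 12 pairs were called in both. Lrfn2 is among the astrocyte calls of both comparisons, though it passed the filter on low counts through the Arc wells alone.

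Nrxn3 fell in dentate granule nuclei of Arc mice. The level was 1598, 2022 and 2448 CPM in the lowest, median and highest WT-veh well, against 857, 1124 and 1372 CPM for Arc-veh. WT-PMX wells ran from 1928 to 2156 CPM and Arc-PMX wells from 850 to 1325 CPM. All 12 Arc wells were below all 12 WT wells. The level in Arc-veh was 0.551 of that in WT-veh, a log2 difference of -0.86 ± 0.11 (SE, n = 6 and 6), with an edgeR adjusted p of 1.41e-05, and over both treatments the log2 difference was -0.89 ± 0.08 (edgeR adjusted p = 2.42e-09). Each of the 7 sublibraries showed it, at log2 differences from -0.97 to -0.75. With each nucleus thinned to 2000 transcripts, the share of dentate granule nuclei with at least 1 Nrxn3 transcript was 84.7 ± 3.2% in WT-veh and 72.8 ± 5.4% in Arc-veh (94.5% and 93.3% unthinned, where the median depth was 4897 and 8689 transcripts, and 182 and 29 nuclei were too shallow to be thinned).

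Dentate granule nuclei formed a pair of clusters whose shares differed between genotypes. The shallower cluster 0 (median 3990 transcripts) held 62.1% of them in WT-veh and 57.2% in WT-PMX, but 29.5% in Arc-veh and 40.3% in Arc-PMX, and cluster 1 (median 8857 transcripts) held the rest. Within cluster 0, Nrxn3 was 2763 ± 367 CPM in WT and 1355 ± 227 CPM in Arc wells (n = 12 and 12), and within cluster 1 it was 1393 ± 237 and 992 ± 177 CPM. Separate fits of each cluster, chosen after the values had been seen, gave log2 differences of -1.02 ± 0.08 (edgeR adjusted p = 1.41e-11; 3 of 32 members and 0.942% of all genes called) and -0.49 ± 0.09 (edgeR adjusted p = 0.00318; 3 of 33 members, 0.64% of all genes). For Arc-veh against WT-veh alone, Nrxn3 passed in cluster 0 (-0.94 ± 0.11, edgeR adjusted p = 1.19e-06; 1 of 32 members, 0.171% of all genes) and not in cluster 1 (-0.43 ± 0.13, edgeR adjusted p = 0.433; 1 of 33 members, 0.0773% of all genes). The other calls over both treatments were Il1rapl2 in both clusters, Tenm2 in cluster 0 (-0.44 ± 0.08) and Tenm1 in cluster 1 (-0.31 ± 0.08).

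Il1rapl2 was the other member that fell in dentate granule nuclei. Its level was 21.3, 30.2 and 46.9 CPM in the lowest, median and highest WT-veh well, 11.2, 15.1 and 19.2 CPM in Arc-veh, 25.6 to 34.2 CPM in WT-PMX and 7.03 to 21.7 CPM in Arc-PMX. Arc-veh and WT-veh wells did not overlap, and among all wells only the highest Arc-PMX well passed the lowest WT-veh well. The log2 difference was -1.16 ± 0.20 for Arc-veh against WT-veh (edgeR adjusted p = 0.0028) and -1.21 ± 0.15 over both treatments (edgeR adjusted p = 3.21e-06), and it was -1.91 ± 0.31 and -1.15 ± 0.18 within clusters 0 and 1. These are low levels, from 539 transcripts in all WT-veh and 221 in all Arc-veh wells, and interneurons held far more. Of the interneuron markers, Gad2 was at 0.908 CPM and Gad1 at 47.3 CPM (30.2 to 68.3) in dentate granule nuclei, and their part in these values was not tested. By DESeq2 and with nuclei named by marker score the Arc-veh call was lost (the adjusted p reached at most 0.0702 over the alternatives), while the call over both treatments stood in 34 of 34 alternatives.

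**Figure D2:**
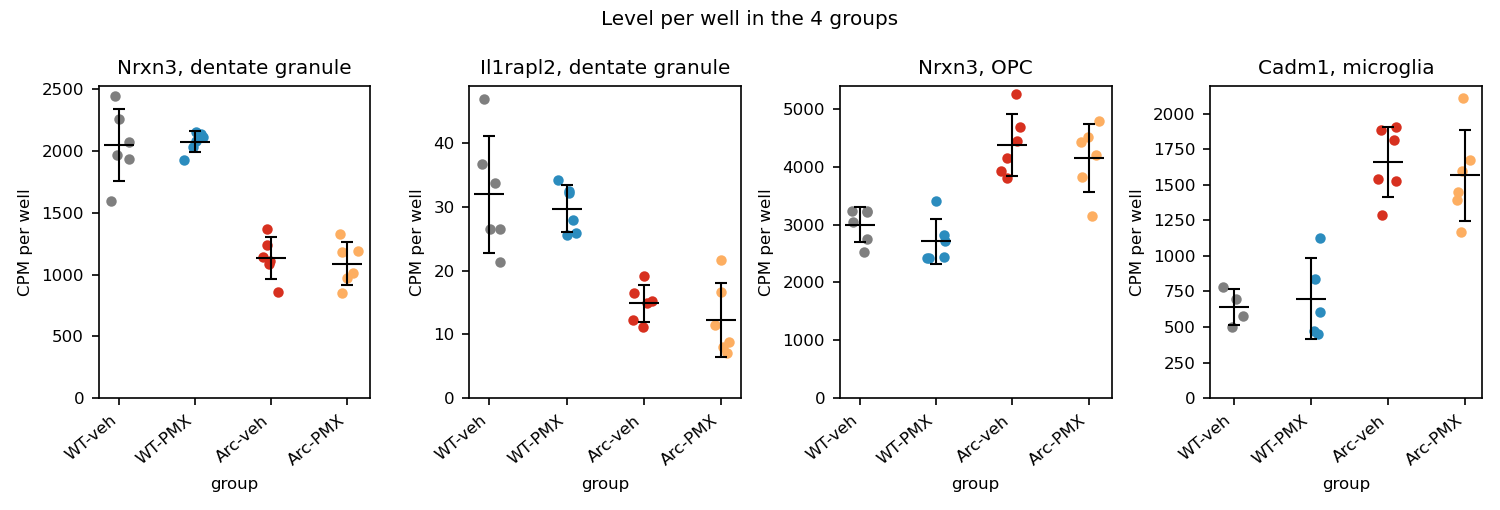
Points are wells, with CPM on the vertical axes from 0 and the 4 groups on the horizontal axes, and black bars give the mean ± SD. Nrxn3 in dentate granule nuclei lies between 850 and 1372 CPM in the Arc wells and between 1598 and 2448 CPM in the WT wells, Il1rapl2 is lower in Arc, and Nrxn3 in OPC and Cadm1 in microglia are higher in Arc.

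In CA1, CA3 and interneurons, where its level was higher, Nrxn3 was not called. Neurons given no subtype (10250 nuclei, 23.4% of all) were not fitted. They held a cluster led by Fibcd1, the CA1 marker, with 1.25% to 1.46% of the nuclei of each group, so the CA1 values leave these nuclei out. They also held a cluster led by Stra6, as was dentate granule cluster 1. The log2 difference of Nrxn3 for Arc against WT over both treatments was 0.00 ± 0.07 in CA1, -0.01 ± 0.07 in CA3 and 0.00 ± 0.06 in interneurons. The difference between types was tested by permuting genotype over mice, on differences of log2(CPM + 1) within each well (24 comparisons of types, chosen after the values had been seen, Benjamini-Hochberg adjusted). Nrxn3 moved by -0.87 ± 0.10 more in dentate granule than in CA1 nuclei, by -0.87 ± 0.08 more than in CA3 and by -0.90 ± 0.09 more than in interneurons (permutation p = 2e-05, adjusted 4e-05, each; 2e-05 is the smallest that these permutations can give). Against oligodendrocytes (-0.40 ± 0.23, adjusted permutation p = 0.12) and microglia (-0.59 ± 0.57, 0.32) a difference was not shown. For Il1rapl2, the dentate granule nuclei differed from CA1 by -1.44 ± 0.20 (adjusted permutation p = 4e-05) and from interneurons by -0.98 ± 0.22 (0.00015). A difference from CA3 was not shown (-0.34 ± 0.41, adjusted permutation p = 0.41), and Il1rapl2 in CA3 itself had a log2 difference of -0.72 ± 0.29 (edgeR adjusted p = 0.576).

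In OPC the direction of Nrxn3 turned. WT-veh wells had 2522, 3128 and 3235 CPM (lowest, median and highest), WT-PMX wells 2428 to 3414 CPM, Arc-veh wells 3802, 4295 and 5250 CPM and Arc-PMX wells 3141 to 4793 CPM. Every Arc-veh well was above every WT well, and the lowest Arc-PMX well lay within the WT range. The log2 difference was 0.57 ± 0.11 for Arc-veh against WT-veh (1.49-fold, edgeR adjusted p = 0.00359) and 0.60 ± 0.08 over both treatments (1.52-fold, edgeR adjusted p = 3e-06). Without wells WT-veh F3 and M3 the adjusted p of the former was 0.0664, while the averaged call passed in 34 of 34 alternatives. The 7 sublibraries gave log2 differences of Arc from WT between 0.36 and 0.77. The 7 neuronal markers summed to 390 to 3732 CPM in OPC wells, with means of 1478 ± 1311 CPM in WT-veh, 873 ± 492 in WT-PMX, 1611 ± 1343 in Arc-veh and 1323 ± 1331 in Arc-PMX, and their part in the result was not tested. The change in OPC differed from that in dentate granule nuclei by 1.48 on the log2 scale, and from CA1, CA3, interneurons and oligodendrocytes (0.58 to 1.08, adjusted permutation p at most 0.00027). It was not shown to differ from astrocytes (adjusted permutation p = 0.12), where Nrxn3 moved by 0.23 ± 0.13 (edgeR adjusted p = 0.261), or from microglia (0.14).

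**Figure D3:**
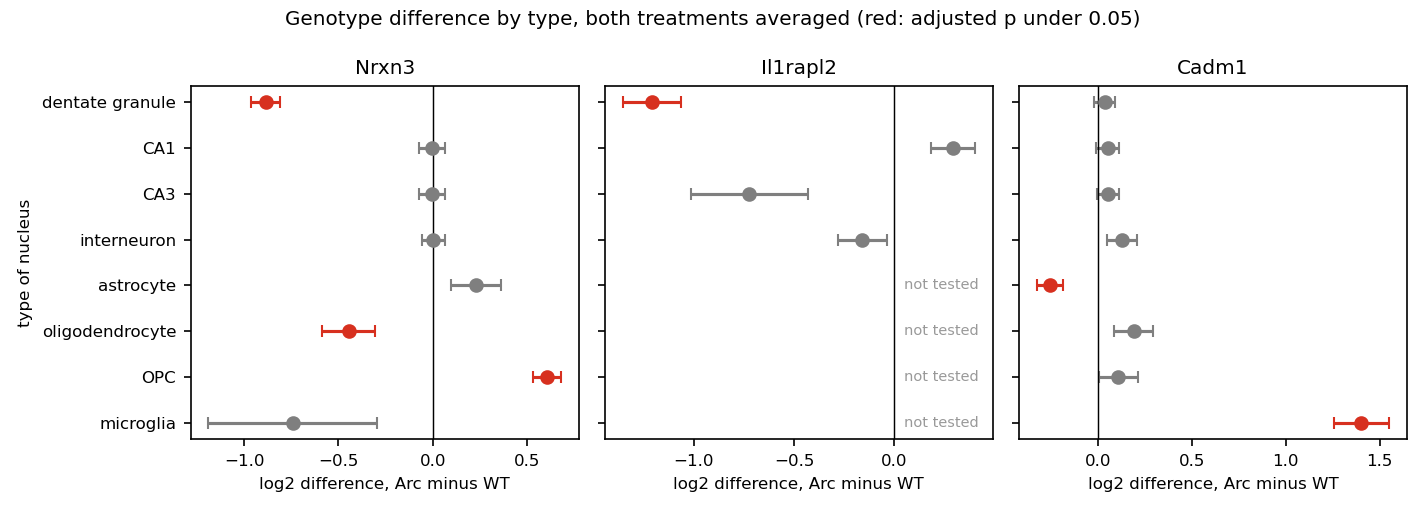
Points give the log2 difference of Arc minus WT over both treatments with its SE (horizontal axes) in each type of nucleus (vertical axis) for Nrxn3, Il1rapl2 and Cadm1, in red where the edgeR adjusted p was under 0.05. Nrxn3 lies at -0.89 in dentate granule nuclei, near 0 in CA1, CA3 and interneurons and at 0.60 in OPC, and Cadm1 lies at 1.40 in microglia and at -0.26 in astrocytes.

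Cadm1, a homophilic adhesion molecule, rose in microglia. The 4 WT-veh wells had 497, 575, 700 and 784 CPM and the 5 WT-PMX wells 448, 474, 609, 841 and 1124 CPM, against 1290, 1680 and 1904 CPM (lowest, median and highest) in Arc-veh and 1167 to 2111 CPM in Arc-PMX. All 12 Arc wells were above all 9 WT wells. The log2 difference was 1.47 ± 0.22 for Arc-veh against WT-veh (2.77-fold, n = 6 and 4, edgeR adjusted p = 1.41e-05) and 1.40 ± 0.15 over both treatments (edgeR adjusted p = 9.26e-09). The 7 sublibraries gave log2 differences of 0.80 to 1.94. WT values rest on few nuclei, with 65 Cadm1 transcripts in WT-veh and 88 in WT-PMX. With only nuclei over 1000 transcripts, the adjusted p of Arc-veh against WT-veh was 0.0765. The change in microglia exceeded that in astrocytes by 1.48 ± 0.17, in oligodendrocytes by 1.14 ± 0.23 and in OPC by 1.23 ± 0.19 (adjusted permutation p at most 0.00019), and in astrocytes Cadm1 fell by 0.26 on the log2 scale (SE 0.07, edgeR adjusted p = 0.00555). Cntnap2 was also called in microglia of Arc-veh, with 341 ± 70.5 CPM in the WT-veh wells, falling to 144 ± 69.3 CPM (log2 -1.26 ± 0.38, edgeR adjusted p = 0.027). Its microglial level was 7.08% of the neuronal level, close to the 8.11% of the neuronal markers, which summed to 1033 ± 414 CPM in WT-veh microglia (870 ± 599 in Arc-veh), and the call was lost over both treatments and without any of 3 single wells (Arc-veh M3, WT-veh F2 or WT-veh M1).

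Astrocytes held most of the calls, 3 higher and 11 lower of 24 members over both treatments, and also the largest share of calls over all genes (20.1%). That share is over genes of every span, and the part of gene span in the members' calls was not tested. The make-up of astrocytes differed between genotypes. Cluster 12, led by Gfap, Osmr and Gpam, was 50.8% of astrocyte nuclei in Arc-veh and 45.7% in Arc-PMX but 0.879% in WT-veh and 1.97% in WT-PMX. It reached at most 4.57% in any WT well and at least 33.7% in every Arc well. Cluster 2, led by Grin2c, Gpc5 and Gldc, held 88.6% and 87.1% of WT-veh and WT-PMX astrocytes and 35.2% and 38.0% of Arc-veh and Arc-PMX astrocytes. The summed neuronal markers were lower in Arc astrocytes, at 827 ± 53.9 CPM in WT-veh, 792 ± 125 in WT-PMX, 551 ± 72.0 in Arc-veh and 604 ± 140 in Arc-PMX, and their part in the falls below was not tested.

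Lrfn2 (chr17:48932379-49097588, plus strand), a postsynaptic protein that binds the scaffold PSD-95 in neurons, had the highest log2 difference of the members called in astrocytes. It had 0, 12.5 and 18.1 CPM in the lowest, median and highest WT-veh well, 0 to 17.6 CPM in WT-PMX, 35.8, 44.6 and 66.2 CPM in Arc-veh and 25.7 to 61.1 CPM in Arc-PMX. No Arc well overlapped a WT well. The mean astrocyte level was 9.02% of that in neurons, within the 2.64% to 15.1% of the single neuronal markers, and the part of neuronal RNA in it was not tested. The log2 difference was 1.98 ± 0.33 for Arc-veh (edgeR adjusted p = 2.19e-05) and 1.82 ± 0.22 over both treatments (edgeR adjusted p = 2.19e-08), from 66 transcripts in WT and 323 in Arc wells. Lrfn2 passed the filter on low counts through the Arc wells alone, since 12 of 12 Arc wells and 0 of 12 WT wells reached the minimum of 20.6 CPM, so its place among the members tested was set by the group in which it was high. Its adjusted p-values are therefore given as a description. Without that filter Lrfn2 was called too. In Arc wells it was 71.6 ± 23.6 CPM in cluster 12 and 4.58 ± 8.76 CPM in cluster 2, where WT wells had 10.6 ± 6.77 CPM. In neurons it did not pass (log2 differences of 0.07 to 0.12), and the difference in astrocytes exceeded that in each of the 4 neuronal types by 2.27 to 2.34, given as a description. Ptprf, the receptor phosphatase LAR, rose from 90.2 ± 28.4 CPM in WT to 137 ± 27.1 CPM in Arc wells (0.60 ± 0.13, edgeR adjusted p = 0.000744), with overlap. Il1rapl1 rose from 668 ± 106 CPM (555 to 881) to 951 ± 127 CPM (661 to 1106), a log2 difference of 0.47 ± 0.08 (edgeR adjusted p = 1.91e-05), also with overlap.

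Among members that fell in astrocytes, Tenm4 was at 153, 247 and 301 CPM in the lowest, median and highest of 12 WT wells and at 111, 152 and 202 CPM in the 12 Arc wells (-0.68 ± 0.11, edgeR adjusted p = 3.1e-06). It was 88.2 ± 13.4 CPM in cluster 12 and 267 ± 78.5 CPM in cluster 2 of Arc wells, against 234 ± 54.8 CPM in cluster 2 of WT wells. Ptprd went from 450 ± 48.5 to 363 ± 81.5 CPM (-0.36 ± 0.10, edgeR adjusted p = 0.00428), Adgrl1 from 345 ± 103 to 267 ± 49.5 CPM (-0.42 ± 0.12, edgeR adjusted p = 0.00795) and Cadm1 from 2016 ± 189 to 1738 ± 178 CPM, each with overlap of wells. Lrrtm4 (188 ± 35.1 to 137 ± 45.6 CPM), Tenm2 (206 ± 48.9 to 144 ± 58.7 CPM), Cntnap2 (151 ± 39.4 to 118 ± 30.2 CPM) and Lrfn5 were called too, with log2 differences of -0.64 to -0.44. The astrocyte level of these 4 members (2.96% to 4.42% of that in neurons), and also of Tenm4 (14.7%) and Ptprd (12.4%), lay within the range of the single neuronal markers. Adgrl3, Slitrk2 and Flrt2 complete the 11 (log2 -0.55 to -0.27), Flrt2 being lost in 22 of 34 alternatives and Slitrk2 in 7. Over both treatments, Lrfn5 was lost without well WT-PMX M2, Cntnap2 without WT-PMX M2 or WT-veh M1, and Ptprd and Lrrtm4 with nuclei named by marker score. Tenm2 was lost in 14 of 35 alternatives for Arc-veh and in 2 of 34 over both treatments.

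Within cluster 2 alone, fitted separately after the values had been seen, 0 of 21 members differed between Arc-veh and WT-veh (0.314% of all genes) and 1 of 21 between Arc and WT over both treatments (2.05% of all genes). That member was Il1rapl1, at 618 ± 112 CPM in WT and 849 ± 205 CPM in Arc wells (log2 0.46 ± 0.11, edgeR adjusted p = 0.0129). In cluster 2, Tenm4 (0.17 ± 0.13), Adgrl1 (-0.07 ± 0.13) and Cadm1 (-0.03 ± 0.08) did not pass, and Lrfn2 had too few transcripts to be tested. Cluster 12 could not be fitted for genotype because nearly all of its nuclei came from Arc wells.

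**Figure D4:**
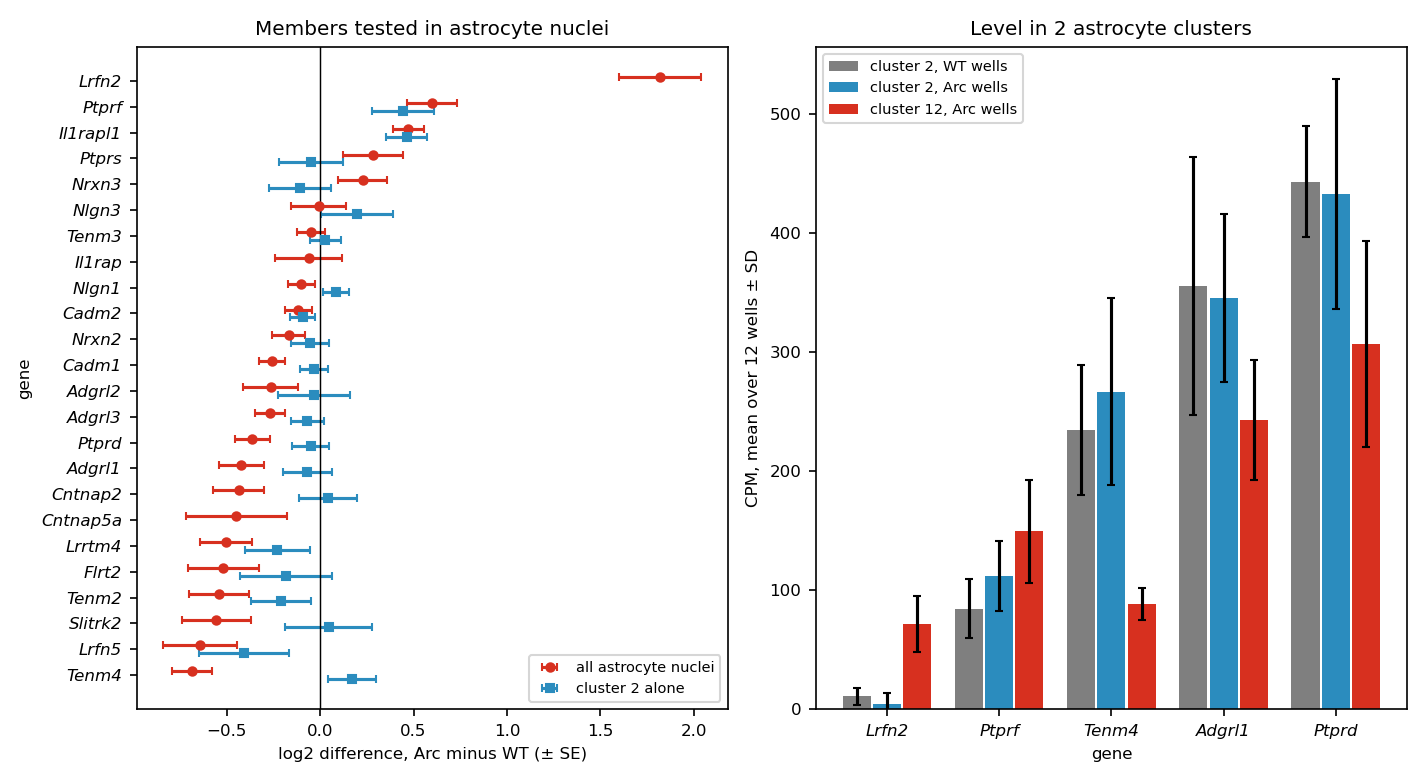
Left, log2 difference of Arc minus WT with its SE for the members tested in astrocyte nuclei (red) and in cluster 2 alone (blue). Right, mean level in CPM ± SD over 12 wells of 5 members in cluster 2 of WT wells (grey), cluster 2 of Arc wells (blue) and cluster 12 of Arc wells (red), where Lrfn2 stands at 71.6 CPM in cluster 12 and Tenm4 at 88.2 CPM.

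In oligodendrocytes both calls were weak. Ptprf had a median of 76.7 CPM in WT (45.3 to 291) and 110 CPM in Arc wells (68.0 to 153), a log2 difference of 0.59 ± 0.17 (edgeR adjusted p = 0.0282), and the highest value was the small well WT-veh M3. Nrxn3 had 310 CPM at the median of WT (136 to 657) and 217 CPM of Arc wells (150 to 357), a log2 difference of -0.45 ± 0.14 (edgeR adjusted p = 0.0465), with the highest value in the small well WT-veh F3. This level was 4.91% of that in neurons, within the 3.69% to 4.93% of the single neuronal markers, which summed to 650 ± 64.1 CPM for WT-veh, 636 ± 273 for WT-PMX, 494 ± 92.7 for Arc-veh and 572 ± 263 for Arc-PMX oligodendrocytes, and their part in the difference was not tested. Ptprf was lost in 11 and Nrxn3 in 22 of 34 alternatives, among them leaving out WT-veh F3 and M3 for Nrxn3.

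The remaining 20 of the 36 members were called in no comparison in the fits of whole types (Tenm1 and Cadm2 were called in the separate fits of dentate granule clusters, above): the presynaptic Nrxn2 and Ptprs, the neuroligins Nlgn1 and Nlgn3, Lrrtm1, Lrrtm2, Lrrtm3, Slitrk1, Slitrk3, Slitrk4, Slitrk5, Il1rap, Tenm1, Tenm3, Adgrl2, Flrt3, Cadm2, Cadm3, Cntnap4 and Cntnap5a. Of the 36 members, 12 passed the filter on low counts in all 8 types and each passed in at least 1. In CA1, CA3 and interneurons the median absolute log2 difference of Arc from WT over both treatments was 0.05, 0.09 and 0.08 for the members tested. Over all genes it was 0.09, 0.09 and 0.09. At an unadjusted p under 0.05 by edgeR there were 3 of 35 members in CA1 (6.69% of all genes), 7 of 36 in CA3 (6.97%) and 2 of 35 in interneurons (4.88%). For Arc-veh against WT-veh the medians were 0.09, 0.15 and 0.12 for the members, beside 0.12, 0.13 and 0.13 over all genes. In counts simulated for Arc-veh against WT-veh, of genes changed 2-fold, 80% were called in dentate granule, 86% in CA1, 75% in CA3, 81% in interneuron, 68% in astrocyte, 57% in oligodendrocyte, 58% in OPC and 25% in microglia nuclei, and of genes changed 1.5-fold 5% to 45%. The changed genes were drawn at random from all genes tested in the type, so these shares are not those for the members.

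PMX205 moved none of the members past the threshold. Arc-PMX against Arc-veh gave 0 of 218 calls by edgeR (0.0% of all genes in 6 types, 0.0137% in astrocytes and 0.0215% in oligodendrocytes). WT-PMX against WT-veh gave 0 and the difference between these effects 0 (0.0% of all genes in each type for both). At an unadjusted p under 0.05 by edgeR there were 6, 9 and 4 of the 218 pairs, beside 2.48%, 3.84% and 3.35% of all genes over the 8 types. DESeq2 called 0 members in each of these comparisons too, and without a filter on low counts edgeR called 3, 3 and 1 of 287 pairs (0.0576%, 0.0576% and 0.04% of all genes over the 8 types). For the members that differed by genotype, the log2 difference of Arc-PMX from Arc-veh was -0.06 ± 0.11 for Nrxn3 and -0.29 ± 0.23 for Il1rapl2 in dentate granule nuclei, -0.10 ± 0.11 for Nrxn3 in OPC, -0.10 ± 0.15 for Cadm1 in microglia and -0.06 ± 0.24 for Lrfn2 in astrocytes (edgeR adjusted p of at least 0.999 each). The largest shifts in Arc mice were Nrxn3 (1.26 ± 0.47) and Lrfn5 (1.26 ± 0.42) in microglia (edgeR adjusted p of at least 0.999 each). Their levels, 9.85% and 9.78% of those in neurons, were near that of the neuronal markers. Nrxn3 had 156 to 345 CPM in Arc-veh microglia. In Arc-PMX microglia it had 1876 CPM in well F3, 924 CPM in M3 and 183 to 373 CPM in the other wells. The largest shifts in WT mice were Tenm4 in OPC (-2.34 ± 0.89, edgeR adjusted p = 0.912) and Lrfn5 in microglia (1.63 ± 0.86, edgeR adjusted p = 0.792). Tenm4 had 12.1 to 744 CPM in WT-veh and 0 to 163 CPM in WT-PMX OPC, where 2 wells, WT-veh F2 and M3, were above all WT-PMX wells. Its level in OPC was 10.0% of that in neurons, near the 10.1% of the summed neuronal markers. Those markers were at 1478 ± 1311 CPM in WT-veh and 873 ± 492 CPM in WT-PMX OPC, and their part in the shift was not tested. In microglia 11 of 13 members tested had a positive log2 difference with PMX205 in Arc and also in WT mice (medians of 0.28 and 0.79, beside -0.01 and -0.02 over all genes), and none passed. The summed neuronal markers in microglia were 1039.6 ± 403 CPM in Arc-PMX (870 ± 599 in Arc-veh) and 1309 ± 1159.7 CPM in WT-PMX (1033 ± 414 in WT-veh), and their part in these values was not tested. These comparisons share Arc-veh or WT-veh wells with those of genotype. A missed threshold does not show equal levels: the approximate 95% interval for Nrxn3 in dentate granule nuclei ran from a log2 of -0.27 to 0.15.

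**Figure D5:**
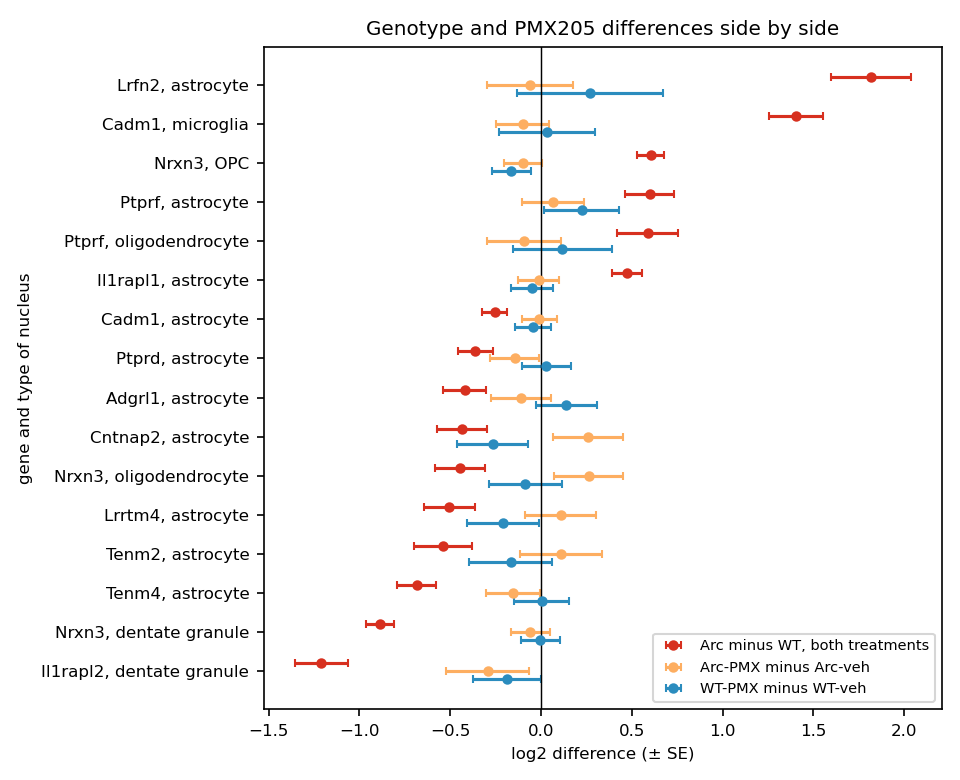
For the pairs of named gene and type called for genotype (vertical axis), points give the log2 differences with SE (horizontal axis) of Arc minus WT over both treatments (red), Arc-PMX minus Arc-veh (orange) and WT-PMX minus WT-veh (blue). The genotype differences run from -1.21 to 1.82, and the PMX205 differences lie between -0.29 and 0.27.

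Females and males were compared within the same fits, with 0 of 218 pairs called by edgeR (0.116% of all genes in dentate granule, 0.326% in CA1, 0.0729% in CA3, 0.0787% in interneuron, 0.151% in astrocyte, 0.15% in oligodendrocyte, 0.112% in OPC and 0.126% in microglia nuclei). At an unadjusted p under 0.05 there were 52 of 218 pairs (11.9% of all genes over the 8 types). By DESeq2 10 of 287 pairs were called (0.233% of all genes with a count, over the 8 types), and by edgeR without a filter on low counts 18 of 287 (0.39%). With the filter, 12 of 216 pairs were called without well Arc-PMX F1 (1.11% of all genes) and 6 of 219 without WT-PMX M1 (0.481%). In dentate granule nuclei 27 of 34 members were lower in females, with a median log2 difference of -0.11 against 0.01 over all genes, and 14 were at an unadjusted p under 0.05 (1550 of the 10345 genes tested). Members lower in females were 25 of 35 in CA1 (median -0.11), 25 of 36 in CA3 (-0.13), 23 of 35 in interneurons (-0.08), 14 of 24 in astrocytes (-0.07), 14 of 18 in oligodendrocytes (-0.06) and 17 of 23 in OPC (-0.05), while in microglia 8 of 13 were higher (median 0.21). Over all genes these medians lay between -0.03 and 0.02. Of all pairs, Cadm2 (-0.30 ± 0.07) and Lrrtm4 (-0.25 ± 0.05) in dentate granule nuclei came nearest, both at an edgeR adjusted p of 0.0522. The 12 female wells had 3397, 4363 and 5190 CPM of Cadm2 (lowest, median and highest) and the 12 male wells 4603, 4987 and 6194 CPM. For Lrrtm4 the female wells had 6555, 8009 and 8775 CPM and the male wells 8353, 9161 and 10522 CPM, and for both genes the ranges overlapped. In separate fits Cadm2 was called in clusters 0 and 1 (1 of 32 members, 0.3% of all genes, and 2 of 33 members, 0.143%) and Lrrtm4 in cluster 1. Long genes as a whole had lower values in females: in dentate granule nuclei genes spanning over 500 kb had a median of -0.09 (73.5% lower) and the 14 members among them -0.21, while genes under 20 kb had a median of 0.08. In the other types but microglia 68.9% (astrocytes) to 81.7% (CA3) of genes over 500 kb were lower in females, against 40.8% in microglia. The part of gene span in the members' values was not tested. Of the 6 members on the X chromosome (Nlgn3, Il1rapl1, Il1rapl2, Tenm1, Slitrk2 and Slitrk4), 31 pairs of member and type were tested, 3 were higher in females, and the log2 differences ran from -0.60 to 0.39 with a median of -0.19 (smallest edgeR adjusted p = 0.0864, for Slitrk4 in CA1).

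Other genes of the same system, a list of 35, were tested where they passed the filter on low counts. The cerebellin genes of the list were tested in no type. The 142 pairs tested, with neuroligin, calsyntenin, MDGA and netrin-G genes among them, gave 2 calls for Arc-veh against WT-veh (Mdga2 and Ntng2 in astrocytes, where 12.7% of all genes were called) and 10 over both treatments (3 higher, 7 lower). Of the latter 10, 7 were in astrocytes and 1 each in oligodendrocytes, OPC and microglia, where 20.1%, 5.24%, 2.17% and 18.1% of all genes were called. In astrocytes Mdga2 (-0.43 ± 0.07), Sparcl1, Clstn1, Igsf21, Cntnap5c and Flrt1 fell and Ntng2, a netrin-G that binds Lrrc4 proteins, rose (0.76 ± 0.14). Ntng2 also rose in oligodendrocytes (0.67 ± 0.18), Cntnap5b in OPC (0.81 ± 0.22), and Mdga2, which binds neuroligins, fell in microglia by 1.54 on the log2 scale (SE 0.41), each by edgeR at an adjusted p under 0.05. For Arc-veh against WT-veh alone, Mdga2 in microglia did not pass (-0.73 ± 0.63, edgeR adjusted p = 0.58). The neuronal markers in microglia summed to 1309 ± 1159.7 CPM in WT-PMX, 1033 ± 414 in WT-veh, 870 ± 599 in Arc-veh and 1039.6 ± 403 in Arc-PMX. Their part in the fall of Mdga2 was not tested, nor was that of neuronal RNA in the other calls of related genes. Through which genotype's wells each related gene passed the filter on low counts was not looked at. In the 4 neuronal types none of these genes was called by edgeR. For Arc-veh against WT-veh 7 pairs there had an unadjusted p under 0.05 by edgeR, with 24 to 26 listed genes tested per type (the gene not reported included). Of all genes, 9.45% in dentate granule, 6.98% in CA1, 6.81% in CA3 and 5.21% in interneuron nuclei had such a p. PMX205 gave 0 calls among them by edgeR (5 pairs at an unadjusted p under 0.05 in Arc mice and 4 in WT mice).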

How the data were processed

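The authors deposited, for each of 7 sublibraries, a matrix of raw counts (transcripts of each gene in each barcode), made with the split-pipe pipeline of Parse Biosciences. The submitters' processing notes name bcl2fastq and mm10, and whether counting used strand is not given in the sources used here, so a gene and an overlapping one may share reads. Wells were assigned to groups by the authors' deposited sample sheet, since the labels of each sublibrary cover all wells, and wells of single cells were not used here. Nuclei with more than 300 and fewer than 50000 transcripts, more than 400 genes and under 1% mitochondrial transcripts were kept. Doublets were scored with Scrublet in scanpy 1.11.5 (expected rate 0.06). All nuclei kept so far, doublets included, were clustered (2000 variable genes without the members and related genes, 30 principal components, 15 neighbours, Leiden resolution 1.5, leidenalg 0.10.2, seed 1) into 40 clusters, which were named from markers. The 1253 nuclei scoring above 0.25 for doublets were removed after clustering. Gene positions came from GENCODE vM21 on GRCm38 (55450 of 55536 identifiers matched).

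For each type, the nuclei of a well were added up into 1 profile where the well held 10 or more of them. Each type was fitted in edgeR 4.0.16 (R 4.3.3) with TMM scaling, filterByExpr, the 4 groups and sex, and quasi-likelihood p-values were adjusted by Benjamini-Hochberg over all genes tested. The SE is that of the log2 fold change in this fit. Replicates were wells, each 1 mouse. Type differences used log2(CPM + 1) within wells and 100000 permutations of genotype (all regroupings, an exact test, for microglia), two-sided. The fits were tested on simulated data. Alternatives covered scaling, DESeq2 1.42.0, filters, covariates, doublets, depth, naming and leaving out wells. Named genes were the 12 members with the smallest adjusted p among those called, the 3 members per type with the highest ratio to the next type (mean of at least 20 CPM), the members on the X chromosome for the sexes, and related genes that were called, while other members are given to account for all 36. The members, marker lists and related genes were chosen with earlier results of these data known. A related gene of the list is not reported here.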

Additional observations from a re-analysis of the deposited data

Results flagged for a closer look

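Of 68 groups of 6 wells looked at, 4 held a well far from the other wells of its group, by the gap to its nearest neighbour over the range of the group (Dixon's criterion, which chance meets in about 1 in 20 groups). Tenm2 in astrocytes was at 306.2 CPM in Arc-PMX M2 (nearest well 153.1 CPM), and Lrrtm4 in astrocytes at 248.4 CPM in WT-PMX M2 (nearest 177.6 CPM). Ptprf in oligodendrocytes was at 290.6 CPM in WT-veh M3 (nearest 91.18 CPM) and Nrxn3 at 657.1 CPM in WT-veh F3 (nearest 364.7 CPM), the wells with 28 and 15 oligodendrocyte nuclei.

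Of 24 tests of whether the genotype difference of a member differed between types, 18 passed after adjustment, on log2(CPM + 1) within wells. These comparisons were chosen after the values had been seen, and 4 of the 18 are of Lrfn2, which passed the filter on low counts through the Arc wells alone (0 of 12 WT wells reached the minimum) and is given as a description. Nrxn3 in dentate granule nuclei differed from CA1 by -0.8746, CA3 by -0.8734, interneurons by -0.8992, astrocytes by -1.167 and OPC by -1.476. Nrxn3 in OPC differed from CA1 by 0.6016, CA3 by 0.6028, interneurons by 0.577 and oligodendrocytes by 1.08. Il1rapl2 in dentate granule nuclei differed from CA1 by -1.438 and interneurons by -0.9757. Cadm1 in microglia differed from astrocytes by 1.484, oligodendrocytes by 1.144 and OPC by 1.235. Lrfn2 in astrocytes differed from dentate granule nuclei by 2.333, CA1 by 2.337, CA3 by 2.322 and interneurons by 2.266.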

How the results depend on the processing

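Calls of members for Arc-veh against WT-veh went from 13 of 218 pairs (2.42% of all genes) to 8 of 239 (1.97%) when nuclei were named by marker score. Arc against WT gave 20 of 218 pairs in the main fit (4.29% of all genes). Over the alternatives that leave out no single well, it gave 14 of 239 (marker score naming, 3.64%) to 26 of 287 (no filter on low counts, 1.86%). Without a filter on low counts there were 3 calls for Arc-PMX against Arc-veh (0.0576% of all genes), 3 for WT-PMX against WT-veh (0.0576%), 1 for the difference between them (0.04%) and 18 of 287 for females against males (0.39% of all genes). Females against males gave 10 calls by DESeq2 and 2 of 221 without WT-veh F3 and M3 (0.171% of all genes). The cause was not tested. Leaving out each well in turn gave 14 (without WT-PMX M2) to 25 (without Arc-PMX M2) calls for Arc against WT, 9 (without WT-veh F2 or M1) to 15 (without Arc-veh M1) for Arc-veh against WT-veh, 0 for the 3 comparisons of PMX205 and 0 to 12 (12 without Arc-PMX F1, 6 without WT-PMX M1 and 1 or 2 without any of 7 other wells) for the sexes. No direction of a called member turned in the alternatives run. A replicate block gave 22 calls for Arc against WT, 13 for Arc-veh against WT-veh and 0 for PMX205. Shares of all genes are not given here for the genotype counts of the leave-one-out and block fits, so those counts are descriptions. Numbers within a group did not pair wells (median correlation 0.036 over 36 pairs, 11 above 0.1). The type with the highest level moved for 4 members when CPM were scaled by TMM over types (Slitrk1, Slitrk3, Il1rapl1 and Adgrl3), for Tenm4 under marker score naming and for Nlgn1 when members were kept among the clustering genes. For Slitrk3 it also moved, from OPC to dentate granule nuclei, when well WT-PMX F2 was left out. For Arc-veh against WT-veh, simulated 2-fold changes of genes drawn at random from all genes tested were found in 25% (microglia), 57% (oligodendrocyte), 58% (OPC) and 68% (astrocyte) of these genes in glia.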
